A study of Mus musculus with 10 samples.

Results

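The cell cycle genes are 41 mouse genes, taken by symbol and not by level, out of 22607 genes with a measured transcript. By role they comprise 5 G1 cyclins and kinases, 4 genes of the G1/S transition, 2 inhibitors of cyclin-dependent kinases, 10 genes of origin licensing and the replication fork, 3 genes of nucleotide supply, 4 G2/M cyclins and their kinase, and 13 genes of mitosis. They were measured by sequencing polyadenylated RNA of sorted antigen-presenting cells from WT C57BL/6 mice aged 8 weeks, for which the labels name no treatment. The 10 libraries form 5 groups of 2 libraries. The MHCII+ set holds colonic MHCII+ cells and splenic MHCII+ cells, both sorted on MHC class II, which displays peptides to CD4 T cells. The subset set holds colonic CD11b+CD11c+ cells, CD11b+ cells and CD11c+ cells, sorted on the integrin chains CD11b and CD11c. The study asked for signature genes of antigen-presenting cells of the gut. The tissue and subset of each group were read from abbreviated titles together with the title of the series. Each library came from 20000 to 50000 cells, and the sources used here do not give the number of mice behind it. No label names separate mice for the libraries of a group, so the p-values weigh differences against a spread among libraries that could be purely technical.

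Estimated counts totalled 12806139 to 41769042 per library. The sort genes were read as a check of the labels. Itgam, which encodes CD11b, was at 694 and 793 CPM in the CD11b+CD11c+ libraries, 742 and 743 CPM in the CD11b+ libraries, and 25.9 and 40.5 CPM in the CD11c+ libraries. Itgax, which encodes CD11c, was at 679 and 772 CPM in the CD11b+CD11c+ libraries, 491 and 557 CPM in the CD11b+ libraries, and 784 and 946 CPM in the CD11c+ libraries. Thus the CD11b label matched its transcript, while Itgax transcript was abundant in all 3 subsets. CPM are counts scaled to a library size that TMM adjusts within a set, and they are shares of a library. In such bulk libraries, fewer cells of a type and less RNA per cell cannot be told apart.

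A cell enters the cycle when D-type cyclins switch on the kinases Cdk4 and Cdk6, which phosphorylate the retinoblastoma protein and release E2F transcription factors. E2F then induces cyclin E, the licensing proteins that load the MCM helicase onto DNA, and the enzymes that make nucleotides, so that S phase begins. Cyclin A and cyclin B with Cdk1 carry the cell through G2 into mitosis, where the aurora kinases, Plk1, kinesins and spindle checkpoint proteins act. The inhibitors p21 and p27, encoded by Cdkn1a and Cdkn1b, hold cyclin-dependent kinases in check. Most mature macrophages and dendritic cells divide little, while precursors and some tissue-resident cells divide more.

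Promoters are shown first because the genes are ordered below by their phase, and the promoter motifs of S phase and of mitosis differ. RefSeq promoters (build GRCm38.p6, 250 bases before to 50 bases after the start) matched 34 of the 41 genes and gave 37 promoters. Printed are the 180 bases before the start of 3 genes of G2 and mitosis (Cdk1, Top2a, Kif11), 2 helicase genes of S phase (Mcm5, Mcm6) and Mki67, whose values departed from those of the others. Capitals mark 3 motifs, each searched on either strand and merged where matches overlap. The core of the cell cycle genes homology region (CHR) was searched as TTTGAA. The binding motif of E2F was searched as TTCCCGC, in a further form as TTGGCGC and in the remaining form as TTCGCGC. The CCAAT box was searched by its complement read on the other strand, ATTGG.
Cdk1 (chr10:69352913-69353092, minus strand): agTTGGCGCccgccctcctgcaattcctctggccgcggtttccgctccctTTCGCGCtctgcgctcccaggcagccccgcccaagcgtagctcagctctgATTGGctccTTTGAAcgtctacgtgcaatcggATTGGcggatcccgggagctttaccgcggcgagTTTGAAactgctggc
Top2a (chr11:99024190-99024369, minus strand): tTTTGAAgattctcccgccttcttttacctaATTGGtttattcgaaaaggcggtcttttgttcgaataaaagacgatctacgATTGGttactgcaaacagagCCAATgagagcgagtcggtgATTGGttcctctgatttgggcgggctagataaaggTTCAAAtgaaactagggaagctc
Kif11 (chr19:37376202-37376381, plus strand): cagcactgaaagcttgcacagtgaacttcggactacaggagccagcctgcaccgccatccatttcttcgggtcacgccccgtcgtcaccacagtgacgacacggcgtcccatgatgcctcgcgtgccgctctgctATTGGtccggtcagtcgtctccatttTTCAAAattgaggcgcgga
Mcm5 (chr8:75109329-75109508, plus strand): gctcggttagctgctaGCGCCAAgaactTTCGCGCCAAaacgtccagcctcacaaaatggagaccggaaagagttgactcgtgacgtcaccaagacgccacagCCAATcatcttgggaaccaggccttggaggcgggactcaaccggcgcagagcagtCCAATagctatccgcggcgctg
Mcm6 (chr1:128359706-128359885, minus strand): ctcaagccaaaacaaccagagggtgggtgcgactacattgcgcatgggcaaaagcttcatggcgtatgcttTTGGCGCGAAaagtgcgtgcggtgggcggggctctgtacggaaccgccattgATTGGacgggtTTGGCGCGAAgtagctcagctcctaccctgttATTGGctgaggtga
Mki67 (chr7:135716380-135716559, minus strand): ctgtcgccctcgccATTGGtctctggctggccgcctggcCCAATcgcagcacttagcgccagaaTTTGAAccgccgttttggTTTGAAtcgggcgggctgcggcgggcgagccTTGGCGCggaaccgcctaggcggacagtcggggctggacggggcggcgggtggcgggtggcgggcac
The stretch of Cdk1 holds 2 CHR cores and 2 E2F words, and that of Top2a holds 2 CHR cores and 4 CCAAT boxes. The helicase genes have E2F words instead, 3 in Mcm5 and 4 in Mcm6, and no CHR core in these windows. Some of these words overlap and share a marked stretch, so in both genes the words outnumber the marked E2F stretches. Mki67 carries 2 CHR cores and 1 E2F word. Over the whole promoter windows, TTTGAA occurred in 10 of 14 promoters of G2/M and mitosis genes (71.4%), in 2 of 13 S phase promoters (15.4%) and in 17.9% of all 32851 promoters. The E2F words occurred in 8 of 13 S phase promoters (61.5%), in 3 of 14 of G2/M and mitosis (21.4%) and in 8.07% of all promoters. ATTGG occurred in 13 of 14 G2/M and mitosis promoters (92.9%), in 10 of 13 S phase promoters (76.9%) and in 37.4% of all. These are letter matches and say nothing of occupancy in these cells.

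Levels between genes and across the 2 sets are given in TPM, which corrects for transcript length. Pcna, the sliding clamp of the replication fork, averaged 198 to 266 TPM over the 5 groups. At the other end, Cenpe, a kinesin of the kinetochore, averaged 1.31 to 3.51 TPM, and Cenpf, a kinetochore protein, 1.19 to 2.72 TPM. Mki67 has a long coding sequence and averaged 17.2 to 33.7 TPM, although its counts were among the highest of the list. All 41 genes passed the count filter in both sets, and the lowest count in any library was 27, for Ccne1.

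Splenic MHCII+ cells had the highest mean TPM of the 5 groups for 30 of the 41 genes, and CD11b+ cells had the lowest for 31. CD11c+ cells were highest for 5 genes, colonic MHCII+ cells for 3 and CD11b+CD11c+ cells for 3. Within the 3 colonic subsets, CD11c+ cells were highest for 32 genes and CD11b+ cells lowest for 34. These orders were not counted over all genes, so whether they are particular to the list was not tested. The MHCII+ set was not tested against the subset set, since the set and the group cannot be told apart.

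**Figure D1:**
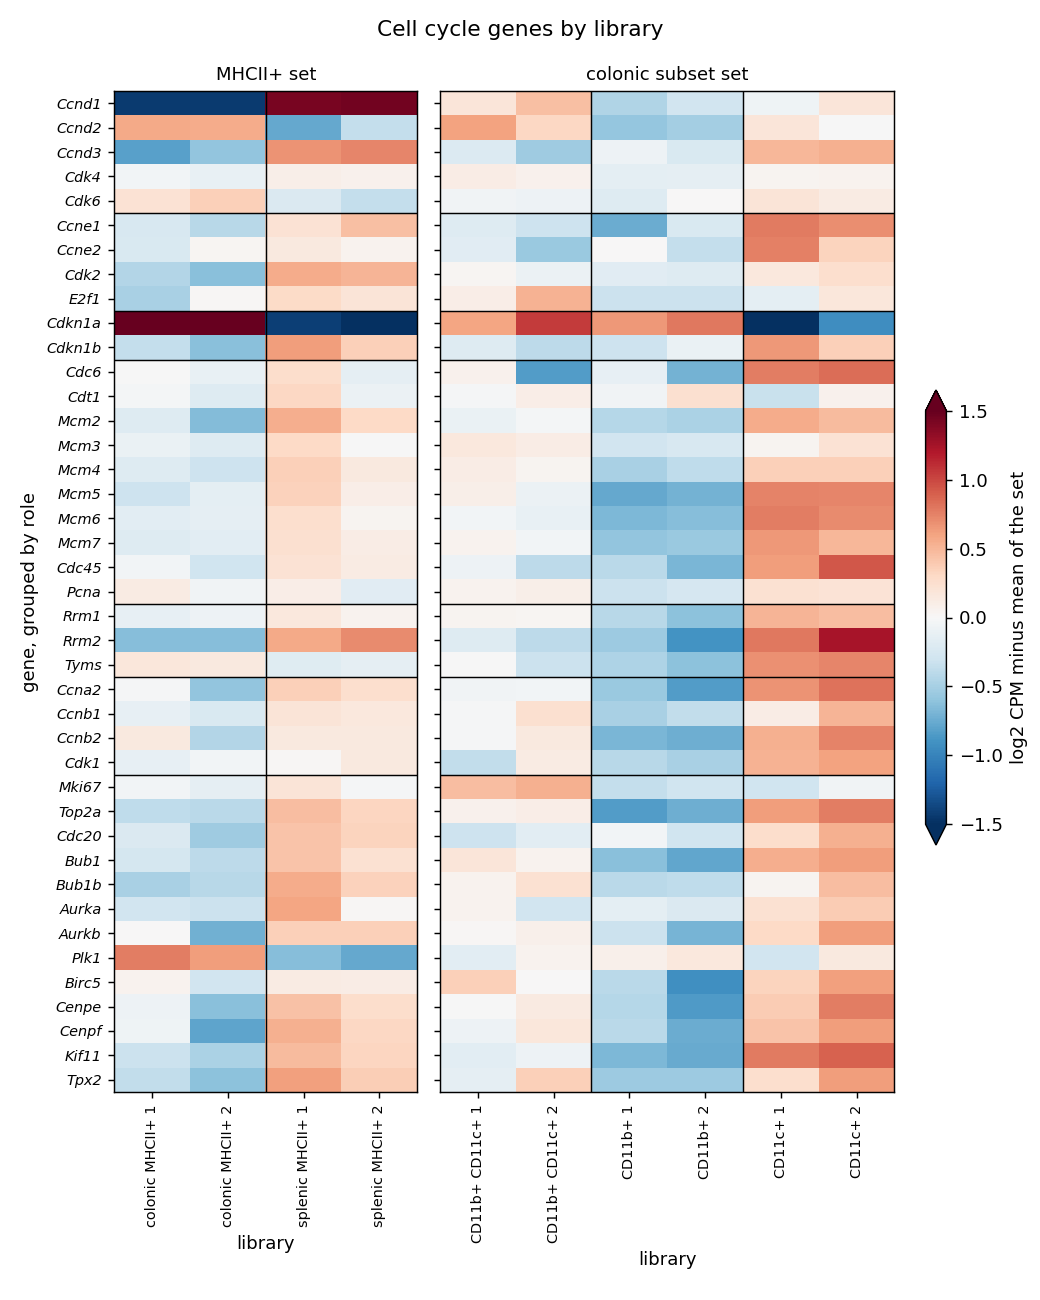
Each row is a cell cycle gene, ordered by role with lines between roles, and each column a library. The color is log2 CPM minus the mean of the set, so colors compare libraries within a set only. Red runs down most splenic MHCII+ rows and most CD11c+ rows, and blue runs down most CD11b+ rows. Cdkn1a departs in both sets, at 179 to 191 CPM in colonic against 12.4 to 20.4 CPM in splenic MHCII+ libraries.

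The first comparison set colonic MHCII+ cells against splenic MHCII+ cells. Of the 41 genes, 20 were lower and 4 higher in the colon (Ccnd2, Cdk6, Cdkn1a, Plk1), at an adjusted p under 0.05 in edgeR's quasi-likelihood test over all genes. Over all 15076 genes tested, 60.3% were called, 28.7% lower and 31.6% higher. The median log2 fold change of the 41 genes was -0.45, against 0.02 for all genes. The count of lower genes was 11 without splenic library 1, where the calls of Ccne1, Mcm4 to Mcm7, Ccna2, Bub1, Cenpe and Cenpf ended. Of the 24 calls, 14 held under every alternative tried: Ccnd1, Ccnd2, Ccnd3, Cdk2, Cdkn1a, Cdkn1b, Mcm2, Rrm2, Top2a, Cdc20, Bub1b, Plk1, Kif11 and Tpx2. The widest differences lay in a G1 cyclin and an inhibitor, Ccnd1 and Cdkn1a.

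Ccnd1, which encodes cyclin D1, was at 26.4 CPM in each colonic MHCII+ library, against 191 and 194 CPM in the splenic libraries. The groups stood far apart, and Ccnd1 was 7.31-fold lower in the colon (log2 fold change -2.87, SE 0.09, adjusted p = 4.0e-06). Ccnd3, which encodes cyclin D3, was at 46.8 and 54.5 CPM in colonic libraries, against 131 and 137 CPM in splenic libraries. It was 2.65-fold lower (log2 fold change -1.41, SE 0.11, adjusted p = 8.2e-05). Ccnd2, which encodes cyclin D2, went the other way, at 55.9 and 55.2 CPM in the colon, against 22.02 and 29.4 CPM in the spleen. It was 2.16-fold higher in the colon (log2 fold change 1.11, SE 0.16, adjusted p = 0.0012).

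The make-up of the D-type cyclins therefore differed between the tissues. Per kilobase of the longest coding sequence, Ccnd1 made up 20.2% and 19.2% of the summed D-type cyclin level in the colonic libraries, against 55.3% and 53.6% in the splenic libraries. The share of Ccnd2 was 43.7% and 40.9% in the colon, against 6.49% and 8.27% in the spleen. The share of Ccnd3 overlapped on this scale, at 38.1% ± 2.68 in the colon and 38.2% ± 0.0994 in the spleen (SD, n = 2 each). The summed level itself averaged 151 CPM per kilobase in the colon and 399 CPM per kilobase in the spleen. The difference in the Ccnd1 share was -34.8 percentage points, for which the exact two-sided permutation test gave p = 0.333, the smallest that 2 against 2 libraries allow. As shares of TPM, Ccnd1 made up 13.7% in the colon and 32.6% in the spleen. Ccnd3 did not overlap on the TPM scale, at 53.6% and 51.9% in the colon against 65.9% and 59.1% in the spleen, so whether its share differed depends on the scale.

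The kinase partners moved less. Cdk6 was at 12.7 and 13.9 CPM in the colon, against 9.37 and 8.52 CPM in the spleen (log2 fold change 0.57, SE 0.18, adjusted p = 0.034). Its call ended in limma (adjusted p = 0.237) and whichever of the 4 libraries was left out. Cdk4 did not pass, at 75.7 and 72.5 CPM in the colon against 83.1 and 81.3 CPM in the spleen (adjusted p = 0.19). Cdk2, the partner of cyclins E and A, was at 26.3 and 23.0 CPM in the colon, against 52.3 and 50.9 CPM in the spleen, and was lower (log2 fold change -1.06, SE 0.12, adjusted p = 0.00043). Of the other G1/S genes, Ccne1 (cyclin E1) was lower at 6.36 and 5.61 against 8.69 and 10.2 CPM (adjusted p = 0.045), while Ccne2 (cyclin E2) and the transcription factor E2f1 did not pass. The Ccne1 call ended with RLE scaling, DESeq2 and limma and without colonic library 2 or either splenic library, at adjusted p = 0.0531 to 0.223.

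The 2 inhibitors changed in opposite directions. Cdkn1a was at 191 and 179 CPM in the colonic libraries, against 20.4 and 12.4 CPM in the splenic libraries. It was 11.2-fold higher in the colon (log2 fold change 3.49, SE 0.23, adjusted p = 4.3e-05), the largest change of the 41 genes in any comparison. Cdkn1b was at 67.8 and 56.3 CPM in the colon, against 134 and 111 CPM in the spleen (log2 fold change -0.98, SE 0.14, adjusted p = 0.0012). On the log2 scale, Cdkn1a exceeded Cdkn1b by 1.49 and 1.67 in the colonic libraries and fell short of it in the splenic ones, with differences of -2.72 and -3.16.

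**Figure D2:**
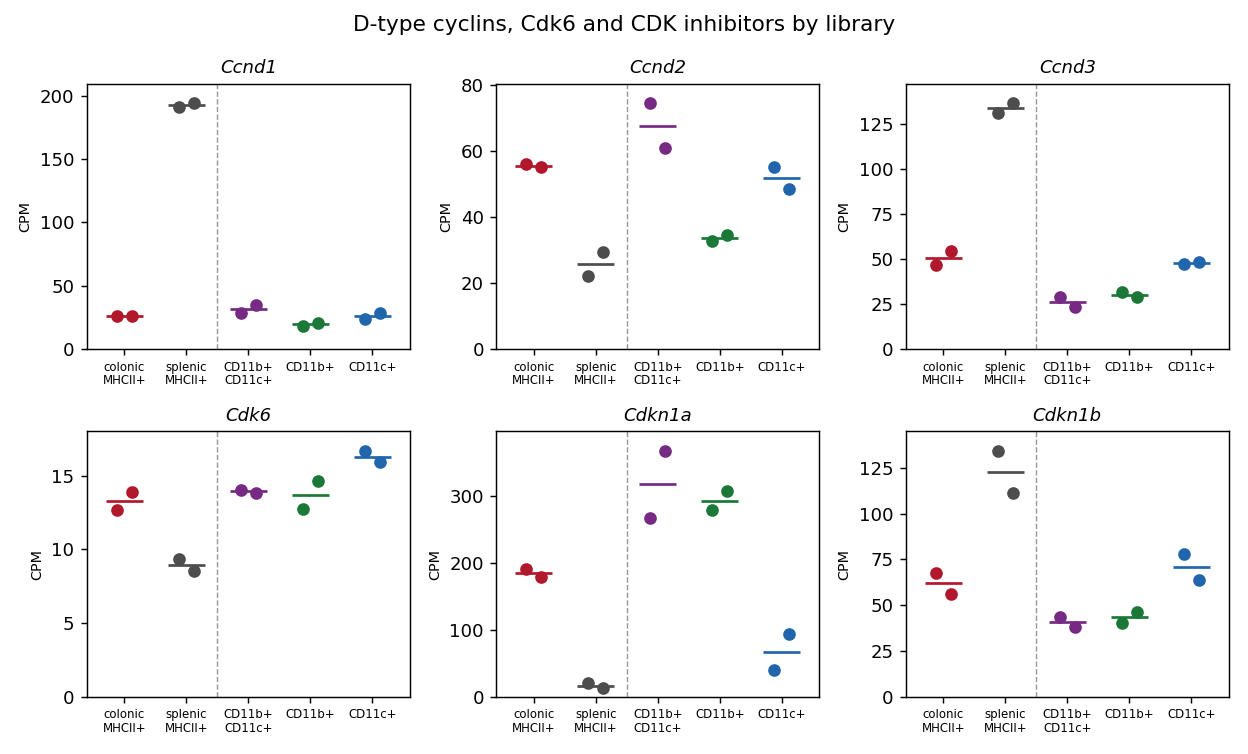
Each panel shows CPM of a G1 gene or inhibitor on a linear axis from 0. Points are libraries, short lines are means of 2 libraries, and the dashed line parts the MHCII+ set from the colonic subset set, whose levels were scaled separately. Ccnd1 is at 26.4 CPM in both colonic MHCII+ libraries, against 191 and 194 CPM in the splenic ones. Cdkn1a is lowest within its set in the splenic MHCII+ and in the CD11c+ libraries.

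Of the 10 licensing and fork genes, 5 passed as lower in the colon. The 5 were Mcm2, Mcm4, Mcm5, Mcm6 and Mcm7, subunits of the helicase that unwinds DNA, with log2 fold changes of -0.83 to -0.30. Mcm6 was at 92.8 and 93.6 CPM in the colon, against 122 and 107 CPM in the spleen (adjusted p = 0.043), and Mcm3 did not pass (adjusted p = 0.079). The Mcm6 call ended with RLE scaling (adjusted p = 0.0557) and DESeq2 (adjusted p = 0.05225), and without either colonic library or splenic library 1. The 6 helicase subunits Mcm2 to Mcm7 together summed to 438 ± 8.52 CPM in the colon and 588 ± 64.1 CPM in the spleen (SD, n = 2 each). Pcna overlapped, at 271 and 241 CPM in the colon and 267 and 223 CPM in the spleen. Cdc6 and Cdt1, which load the helicase, and Cdc45, which activates it, did not pass either.

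In nucleotide supply, Rrm2 stood apart from its partner. Rrm2, the S phase subunit of ribonucleotide reductase, was at 18.0 and 17.9 CPM in the colon, against 41.4 and 45.9 CPM in the spleen (log2 fold change -1.28, SE 0.13, adjusted p = 0.00024). Rrm1, the large subunit of the same enzyme, was at 64.0 and 66.4 CPM in the colon against 77.9 and 72.3 CPM in the spleen and did not pass (adjusted p = 0.099). Tyms, which encodes thymidylate synthase, had more counts in the colon, 23.2 and 22.7 CPM against 18.1 and 18.8 CPM, and did not pass (adjusted p = 0.094).

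Among the 4 G2/M genes only Ccna2 (cyclin A2) was called lower, at 23.6 and 15.9 CPM in the colon against 30.7 and 28.4 CPM in the spleen (adjusted p = 0.048). That call ended with RLE scaling (adjusted p = 0.0631) and DESeq2 (adjusted p = 0.05015), and without colonic library 2 or either splenic library. Ccnb1, Ccnb2 and Cdk1, the parts of the cyclin B kinase that starts mitosis, did not pass. Of the 13 mitosis genes, 8 were lower and Plk1 was higher. Tpx2, which targets aurora A to the spindle, was at 22.1 and 18.7 CPM in the colon, against 43.8 and 36.9 CPM in the spleen (log2 fold change -0.98, SE 0.15, adjusted p = 0.0018). Bub1b, a spindle checkpoint kinase-like protein, was at 26.2 and 27.6 CPM in the colon, against 53.7 and 46.5 CPM in the spleen (log2 fold change -0.90, SE 0.12, adjusted p = 0.0010).

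Top2a, the topoisomerase that untangles chromosomes, was at 115 and 113 CPM in the colon, against 205 and 187 CPM in the spleen (log2 fold change -0.78, SE 0.09, adjusted p = 0.00057). Kif11, the kinesin that separates spindle poles, was at 18.1 and 16.2 CPM in the colon, against 31.2 and 28.1 CPM in the spleen (adjusted p = 0.0038). Cdc20, an activator of the anaphase-promoting complex, Bub1, Cenpe and Cenpf were lower as well, with log2 fold changes of -0.80 to -0.66. The aurora kinase genes Aurka and Aurkb and the survivin gene Birc5 did not pass (adjusted p = 0.051, 0.052 and 0.34). Mki67, the classical proliferation antigen Ki-67, did not pass, at 343 and 322 CPM in the colon and 405 and 348 CPM in the spleen (log2 fold change -0.18, SE 0.11, adjusted p = 0.21).

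Plk1, the polo-like kinase of mitotic entry, opposed the other mitosis genes. It was at 55.2 and 49.9 CPM in the colonic MHCII+ libraries, against 20.8 and 19.0 CPM in the splenic libraries, 2.64-fold higher (log2 fold change 1.40, SE 0.12, adjusted p = 0.00014). In TPM, Plk1 averaged 15.7 ± 1.16 in colonic MHCII+ cells and 6.94 ± 0.308 in splenic MHCII+ cells (SD, n = 2 each), and the 3 colonic subsets, scaled in another set and not tested against these, averaged 4.32 to 5.13. On the log2 scale, Plk1 stood at -1.05 and -1.18 relative to Top2a in the colonic MHCII+ libraries and at -3.30 in both splenic ones.

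Markers of other cells differed strongly between these libraries. The 8 B cell markers summed to 83.9 to 85.3 CPM in the colon and 1439 to 1528 CPM in the spleen, with 8 of 8 lower in the colon. The 11 neutrophil and myeloid progenitor markers summed to 266 to 366 CPM in the colon and 5839 to 8177 CPM in the spleen, with 10 of 11 lower. The 8 erythroid markers summed to 97.2 to 110.01 CPM in the colon and 153 to 165 CPM in the spleen, with 6 of 8 lower and Rhag without a count in the colon. Epithelial markers went the other way, 5305 to 5336 CPM in the colon and 27.5 to 30.2 CPM in the spleen, with 11 of 12 higher. Plasma cell markers did so too, 14649 to 16442 CPM in the colon and 228 to 251 CPM in the spleen, with 8 of 8 higher. T cell markers summed to 150.1 to 200 CPM in the colon and 546 to 610 CPM in the spleen, with 8 of 10 lower, and conventional dendritic cell markers to 1175 to 1364 CPM in the colon and 2820 to 3348 CPM in the spleen, with 7 of 8 lower. Macrophage markers summed to 2321 to 2617 CPM in the colon and 1263 to 1403 CPM in the spleen, with 6 of 10 higher. Stromal and endothelial markers were higher in 5 of 7 cases and innate lymphoid and NK cell markers in 4 of 8. The leukocyte gene Ptprc was itself lower in the colon, at 1170 and 1162 CPM against 3115 and 3132 CPM (log2 fold change -1.42, SE 0.10, adjusted p = 6.1e-05). What part these cells had in the differences of the cell cycle genes was not tested.

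The second comparison set CD11b+ cells against CD11c+ cells of the colon. Here the shift of the list was widest, with 31 of 41 genes lower in CD11b+ cells, 1 higher (Cdkn1a) and 9 that did not pass. Over all 14225 genes tested, 52.0% were called, 25.0% lower and 27.0% higher. The median log2 fold change was -0.97 for the 41 genes, against -0.02 for all genes. Without 1 library, the lower genes numbered 32 and 29 (CD11c+ library 1 or 2) and 22 and 24 (CD11b+ library 1 or 2), and 20 of the 32 calls held under every alternative tried. The 20 were Ccnd3, Cdkn1a, Mcm2, Mcm4 to Mcm7, Pcna, Rrm1, Rrm2, Tyms, Ccna2, Ccnb2, Cdk1, Top2a, Bub1, Aurkb, Birc5, Cenpe and Kif11. In the main fit, nucleotide supply and the G2/M genes were lower throughout, 3 of 3 and 4 of 4. So were 9 of 10 licensing and fork genes and 10 of 13 mitosis genes.

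Rrm2 had the largest fall, at 11.2 and 8.79 CPM in CD11b+ libraries, against 28.3 and 38.6 CPM in CD11c+ libraries. It was 3.35-fold lower (log2 fold change -1.74, SE 0.20, adjusted p = 0.0014). Here its partner Rrm1 fell too, at 40.99 and 35.8 CPM in CD11b+ libraries against 77.8 and 75.2 CPM in CD11c+ libraries (log2 fold change -0.995, SE 0.10, adjusted p = 0.00081). Tyms was at 10.1 and 9.02 CPM in CD11b+ libraries, against 22.3 and 23.0 CPM in CD11c+ libraries (log2 fold change -1.25, SE 0.15, adjusted p = 0.0015).

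All 6 helicase subunits were lower in CD11b+ cells, and their sum was 285 ± 6.20 CPM in CD11b+ cells and 580.2 ± 6.12 CPM in CD11c+ cells (SD, n = 2 each). Mcm5 was at 39.9 and 41.6 CPM in CD11b+ libraries, against 114 and 112 CPM in CD11c+ libraries (log2 fold change -1.47, SE 0.10, adjusted p = 0.00028). Mcm6 was at 51.1 and 52.5 CPM in CD11b+ libraries, against 139.6 and 134 CPM in CD11c+ libraries (log2 fold change -1.40, SE 0.08, adjusted p = 0.00024). Mcm3 had the smallest fall of the subunits, with 72.6 and 75.2 CPM against 91.3 and 103 CPM (log2 fold change -0.40, SE 0.09, adjusted p = 0.015). Within these genes, replicate libraries lay close together and the groups did not overlap. Overlap was not counted over all genes, so it has no share to be read against. Pcna, Cdc6 and Cdc45 were lower as well, as were Ccne1 and Cdk2 of the G1/S group, while Ccne2 and E2f1 did not pass. In licensing, Cdt1 alone did not pass and overlapped between the groups (adjusted p = 0.29). The calls of Mcm3, Cdc45, Ccne1 and Cdk2 ended in limma, at adjusted p = 0.072 to 0.142, and that of Cdc6 without CD11b+ library 2.

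The genes of G2 and mitosis showed falls of similar size. Ccna2 was at 11.9 and 9.77 CPM in CD11b+ libraries, against 28.0 and 30.9 CPM in CD11c+ libraries (log2 fold change -1.44, SE 0.14, adjusted p = 0.00069). Cdk1 was at 11.1 and 10.6 CPM in CD11b+ libraries, against 21.2 and 22.4 CPM in CD11c+ libraries (log2 fold change -1.01, SE 0.18, adjusted p = 0.0052). Kif11 was at 11.5 and 10.9 CPM in CD11b+ libraries, against 31.2 and 33.6 CPM in CD11c+ libraries (log2 fold change -1.54, SE 0.11, adjusted p = 0.00034). Top2a, at 72.4 and 78.1 CPM in CD11b+ libraries against 200.4 and 221 CPM in CD11c+ libraries, was 2.80-fold lower (adjusted p = 0.00027). Birc5, the inhibitor of apoptosis survivin that also serves the chromosomal passenger complex, was at 8.00 and 5.60 CPM against 13.4 and 16.2 CPM (log2 fold change -1.13, adjusted p = 0.0091). Its kinase partner Aurkb had 8.77 and 6.80 CPM in CD11b+ libraries and 13.5 and 17.0 CPM in CD11c+ libraries (log2 fold change -0.97, adjusted p = 0.0077).

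The mitosis genes that did not pass were Mki67, Aurka and Plk1. Mki67 overlapped between the groups, at 365 and 380.2 CPM in CD11b+ libraries and 380.2 and 453 CPM in CD11c+ libraries (log2 fold change -0.16, SE 0.11, adjusted p = 0.26). The log2 ratio of Mki67 to Top2a was 2.33 and 2.28 in CD11b+ libraries, against 0.92 and 1.04 in CD11c+ libraries, a mean difference of 1.33. The exact two-sided permutation test of this ratio gave p = 0.333, again the smallest possible. This ratio was not planned and restates the values of its genes, so it adds no support. The ratio was 1.58 and 1.51 in colonic MHCII+ libraries, against 0.98 and 0.89 in splenic MHCII+ libraries.

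In G1, Ccnd2 and Ccnd3 were lower in CD11b+ cells, with log2 fold changes of -0.63 and -0.67, and Ccnd1, Cdk4 and Cdk6 did not pass. Cdkn1a was the exception to the falls, at 279 and 307 CPM in CD11b+ libraries, against 40.0 and 93.4 CPM in CD11c+ libraries. It was 4.40-fold higher (log2 fold change 2.14, SE 0.39, adjusted p = 0.0058). The CD11c+ libraries differed widely from each other in this gene, and without CD11c+ library 2 the log2 fold change was 2.86. The 10 macrophage markers summed to 7838 to 8888 CPM in the CD11b+ libraries, against 288 CPM in CD11c+ library 1 and 1326 CPM in CD11c+ library 2, with 10 of 10 higher in CD11b+ cells. What part macrophages had in the Cdkn1a values was not tested. Cdkn1b was lower in CD11b+ cells, at 40.3 and 46.3 CPM against 78.1 and 63.8 CPM (log2 fold change -0.71, SE 0.14, adjusted p = 0.0080).

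**Figure D3:**
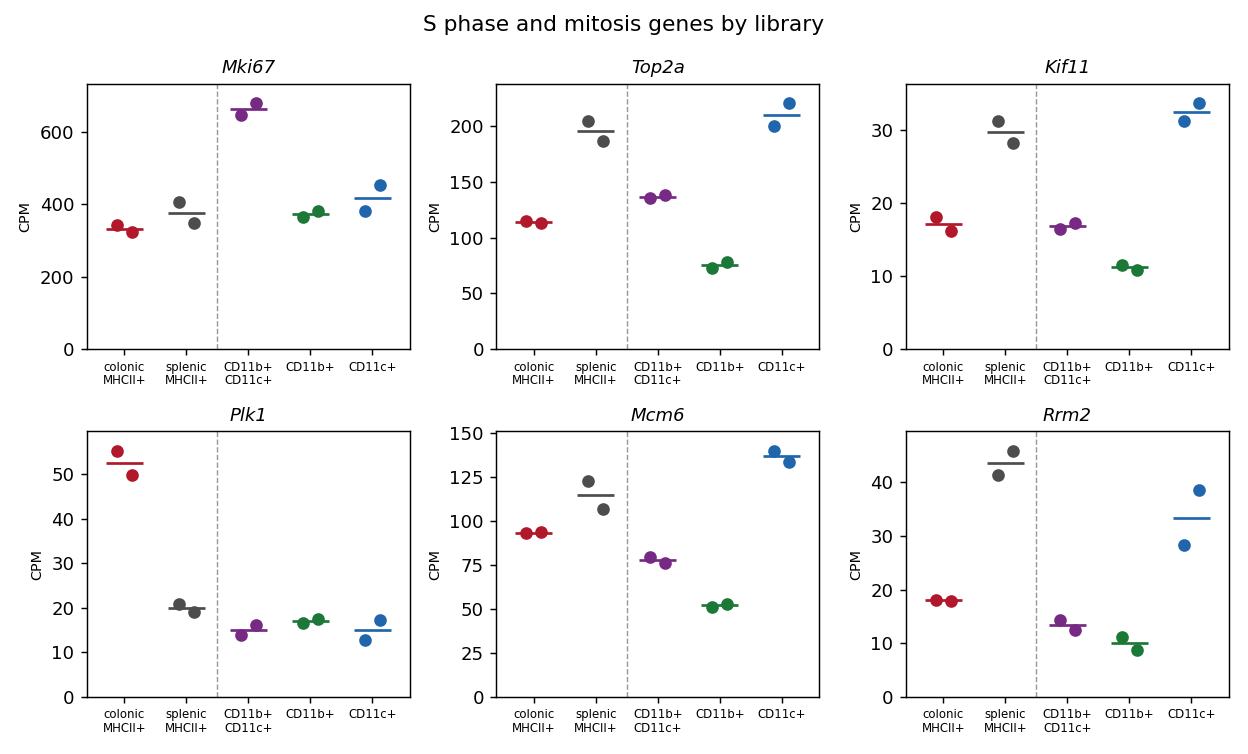
Each panel shows CPM of an S phase or mitosis gene on a linear axis from 0, with points for libraries, short lines for means of 2 libraries and a dashed line between the separately scaled sets. Within the subset set, Top2a, Kif11, Mcm6 and Rrm2 are lowest in the CD11b+ libraries, and Mki67 is highest in the CD11b+CD11c+ libraries at 646 and 679.6 CPM. Within the MHCII+ set, Plk1 is the gene with more CPM in the colonic libraries.

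Conventional dendritic cell markers moved with the list, at a sum over 8 genes of 334 to 344 CPM in CD11b+ cells and 4075 to 4409 CPM in CD11c+ cells, with 8 of 8 lower in CD11b+ cells. T cell markers did as well, at 116 to 147 CPM in CD11b+ cells and 292 to 713 CPM in CD11c+ cells, with 9 of 10 lower. Within the CD11c+ group the T cell sum was 713 CPM in library 1 and 292 CPM in library 2. The 11 neutrophil and myeloid progenitor markers summed to 358 to 389 CPM in CD11b+ cells and to 0.758 to 1.27 CPM in CD11c+ cells, where S100a8, Camp, Ngp, Fcnb, Elane and Ctsg had no count in either library. Plasma cell markers summed to 13327 to 16389 CPM in CD11b+ cells and 29862 to 39782 CPM in CD11c+ cells, with 6 of 8 lower, and innate lymphoid and NK cell markers were lower in 5 of 8 cases. Stromal and endothelial markers summed to 3547 to 3959 CPM in CD11b+ cells and 1139 to 1323 CPM in CD11c+ cells, with 6 of 7 higher, and 7 of 11 tested epithelial markers were higher. The part of all these cell types in the differences was not tested.

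The third comparison set CD11b+CD11c+ cells against CD11c+ cells, which are the same CD11c+ libraries as before. Of the 41 genes, 21 were lower in CD11b+CD11c+ cells and 2 were higher, Cdkn1a and Mki67. Over all genes, 43.0% were called, 22.5% lower and 20.4% higher. The median log2 fold change was -0.46, against -0.09 for all genes. The lower genes included 7 of 10 licensing and fork genes, 3 of 3 nucleotide genes, 3 of 4 G2/M genes and 4 of 13 mitosis genes.

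Rrm2 again had the largest fall, at 14.3 and 12.4 CPM in CD11b+CD11c+ libraries, against 28.3 and 38.6 CPM in CD11c+ libraries (log2 fold change -1.32, SE 0.20, adjusted p = 0.0039). Cdc45 was at 16.1 and 12.9 CPM, against 26.1 and 32.2 CPM in CD11c+ libraries (log2 fold change -1.005, SE 0.18, adjusted p = 0.0066). Mcm6 was at 79.3 and 75.8 CPM, against 139.6 and 134 CPM in CD11c+ libraries (log2 fold change -0.82, SE 0.08, adjusted p = 0.0012). The helicase sum was 412 ± 13.8 CPM in CD11b+CD11c+ cells and 580.2 ± 6.12 CPM in CD11c+ cells (SD, n = 2 each). Mcm3 was the subunit that did not pass, at 98.7 and 96.1 CPM in CD11b+CD11c+ libraries against 91.3 and 103 CPM in CD11c+ libraries (adjusted p = 0.99).

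In mitosis, Kif11 was at 16.4 and 17.3 CPM in CD11b+CD11c+ libraries, against 31.2 and 33.6 CPM in CD11c+ libraries (log2 fold change -0.94, SE 0.11, adjusted p = 0.0015). Top2a was at 135 and 138 CPM, against 200.4 and 221 CPM in CD11c+ libraries (log2 fold change -0.62, SE 0.09, adjusted p = 0.0037). Mki67 went the opposite way, at 646 and 679.6 CPM in CD11b+CD11c+ libraries, against 380.2 and 453 CPM in CD11c+ libraries. It was 1.59-fold higher (log2 fold change 0.67, SE 0.11, adjusted p = 0.0052). The log2 ratio of Mki67 to Top2a was 2.26 and 2.30 in CD11b+CD11c+ libraries, against 0.92 and 1.04 in CD11c+ libraries, and the exact two-sided permutation test gave p = 0.333.

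Cdkn1a was at 268 and 367 CPM in CD11b+CD11c+ libraries, against 40.0 and 93.4 CPM in CD11c+ libraries (log2 fold change 2.25, SE 0.39, adjusted p = 0.0060). Without CD11c+ library 2 its log2 fold change was 2.98. Cdkn1b was lower, at 43.5 and 37.8 CPM against 78.1 and 63.8 CPM (log2 fold change -0.80, SE 0.14, adjusted p = 0.0065). Ccnd3 was at 29.1 and 23.1 CPM in CD11b+CD11c+ libraries, against 47.4 and 48.6 CPM in CD11c+ libraries (log2 fold change -0.88, SE 0.13, adjusted p = 0.0039). Ccne1 and Ccne2 were lower with log2 fold changes of -0.99 and -0.91, but both calls ended in limma and without CD11c+ library 1 or either CD11b+CD11c+ library (adjusted p = 0.0602 to 0.225). In G1 and G1/S, Cdk2, Cdk4, Cdk6, Ccnd1, Ccnd2 and E2f1 did not pass.

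The count of lower genes fell whichever library was left out. It was 13 and 12 without CD11b+CD11c+ library 1 or 2, and 16 and 15 without CD11c+ library 1 or 2. Of the 23 calls, 11 held under every alternative tried: Ccnd3, Cdkn1a, Mcm2, Mcm5, Mcm6, Rrm2, Tyms, Ccna2, Mki67, Top2a and Kif11. Mcm4 (log2 fold change -0.28, adjusted p = 0.041) was called under none of the alternatives, at adjusted p = 0.0542 with a replicate block to 0.277 without CD11b+CD11c+ library 2. The CD11b+CD11c+ libraries differed in their markers: the dendritic cell sum was 1510.05 CPM in library 1 and 913 CPM in library 2, and the macrophage sum 9017 CPM and 11813 CPM in the same order. Macrophage markers were higher than in CD11c+ cells in 10 of 10 cases and dendritic cell markers lower in 7 of 8. T cell markers summed to 125 to 158 CPM in CD11b+CD11c+ cells and 292 to 713 CPM in CD11c+ cells, with 9 of 10 lower. Plasma cell markers summed to 10187 to 12709.7 CPM in CD11b+CD11c+ cells and 29862 to 39782 CPM in CD11c+ cells, with 6 of 8 lower. Stromal and endothelial markers, at 643 to 772 CPM in CD11b+CD11c+ cells and 1139 to 1323 CPM in CD11c+ cells, were lower in 4 of 7 cases, and innate lymphoid and NK cell markers, at 137 to 163 CPM against 152 to 257 CPM, in 5 of 8. Their part in the result was not tested.

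The fourth comparison set CD11b+CD11c+ cells against CD11b+ cells. Of the 41 genes, 14 were higher in CD11b+CD11c+ cells, where 9.63% of all genes were called, 3.79% higher and 5.84% lower. No cell cycle gene was called lower by edgeR, and at an unadjusted p under 0.05 the counts were 26 higher and 0 lower. The unadjusted counts were not taken over all genes, so they have no share to be read against. DESeq2 also called 0 lower. The median log2 fold change was 0.51, against 0.01 for all genes. The 14 genes were Ccnd1, Ccnd2, Mcm4, Mcm5, Mcm6, Mcm7, Pcna, Rrm1, Ccna2, Ccnb2, Mki67, Top2a, Bub1 and Kif11.

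Ccnd2 had the largest rise, at 74.5 and 60.8 CPM in CD11b+CD11c+ libraries, against 32.7 and 34.4 CPM in CD11b+ libraries (log2 fold change 1.01, SE 0.13, adjusted p = 0.0079). Its share of the D-type cyclin level per kilobase was 56.7% and 51.8% in CD11b+CD11c+ libraries, against 39.9% and 41.5% in CD11b+ libraries. Top2a was at 135 and 138 CPM in CD11b+CD11c+ libraries, against 72.4 and 78.1 CPM in CD11b+ libraries (log2 fold change 0.86, SE 0.09, adjusted p = 0.0046). Mki67 rose by a like amount, at 646 and 679.6 CPM against 365 and 380.2 CPM (log2 fold change 0.83, SE 0.11, adjusted p = 0.0087). Their log2 ratio, 2.26 and 2.30 in CD11b+CD11c+ libraries against 2.33 and 2.28 in CD11b+ libraries, overlapped between the groups, with a mean difference of -0.03 (exact two-sided permutation p = 0.667).

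Bub1, a kinase of the spindle checkpoint, was at 17.8 and 16.3 CPM in CD11b+CD11c+ libraries, against 10.2 and 9.14 CPM in CD11b+ libraries (log2 fold change 0.83, SE 0.12, adjusted p = 0.013). Mcm5 was at 72.1 and 63.9 CPM in CD11b+CD11c+ libraries, against 39.9 and 41.6 CPM in CD11b+ libraries (log2 fold change 0.74, SE 0.10, adjusted p = 0.0078). The inhibitors did not separate these groups: Cdkn1a had 268 and 367 CPM in CD11b+CD11c+ libraries and 279 and 307 CPM in CD11b+ libraries (adjusted p = 0.88). Cdkn1b likewise overlapped, at 43.5 and 37.8 CPM in CD11b+CD11c+ libraries and 40.3 and 46.3 CPM in CD11b+ libraries (adjusted p = 0.73).

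Of the 4 comparisons, this one changed most when a library was left out. Fewer of the 41 genes were called whichever library was left out. Such fits leave 1 library in a group, and the shares of all genes called in them are not given here. Whether the loss of calls is particular to the list was therefore not tested. The log2 fold changes moved little, with a median of 0.49 to 0.55 over these fits. All 8 dendritic cell markers were higher in CD11b+CD11c+ cells, none of the 10 macrophage markers was called by edgeR, and 5 of 7 tested neutrophil and progenitor markers were lower. Stromal and endothelial markers summed to 643 to 772 CPM in CD11b+CD11c+ cells and 3547 to 3959 CPM in CD11b+ cells, with 4 of 7 lower. Their part in the result was not tested.

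**Figure D4:**
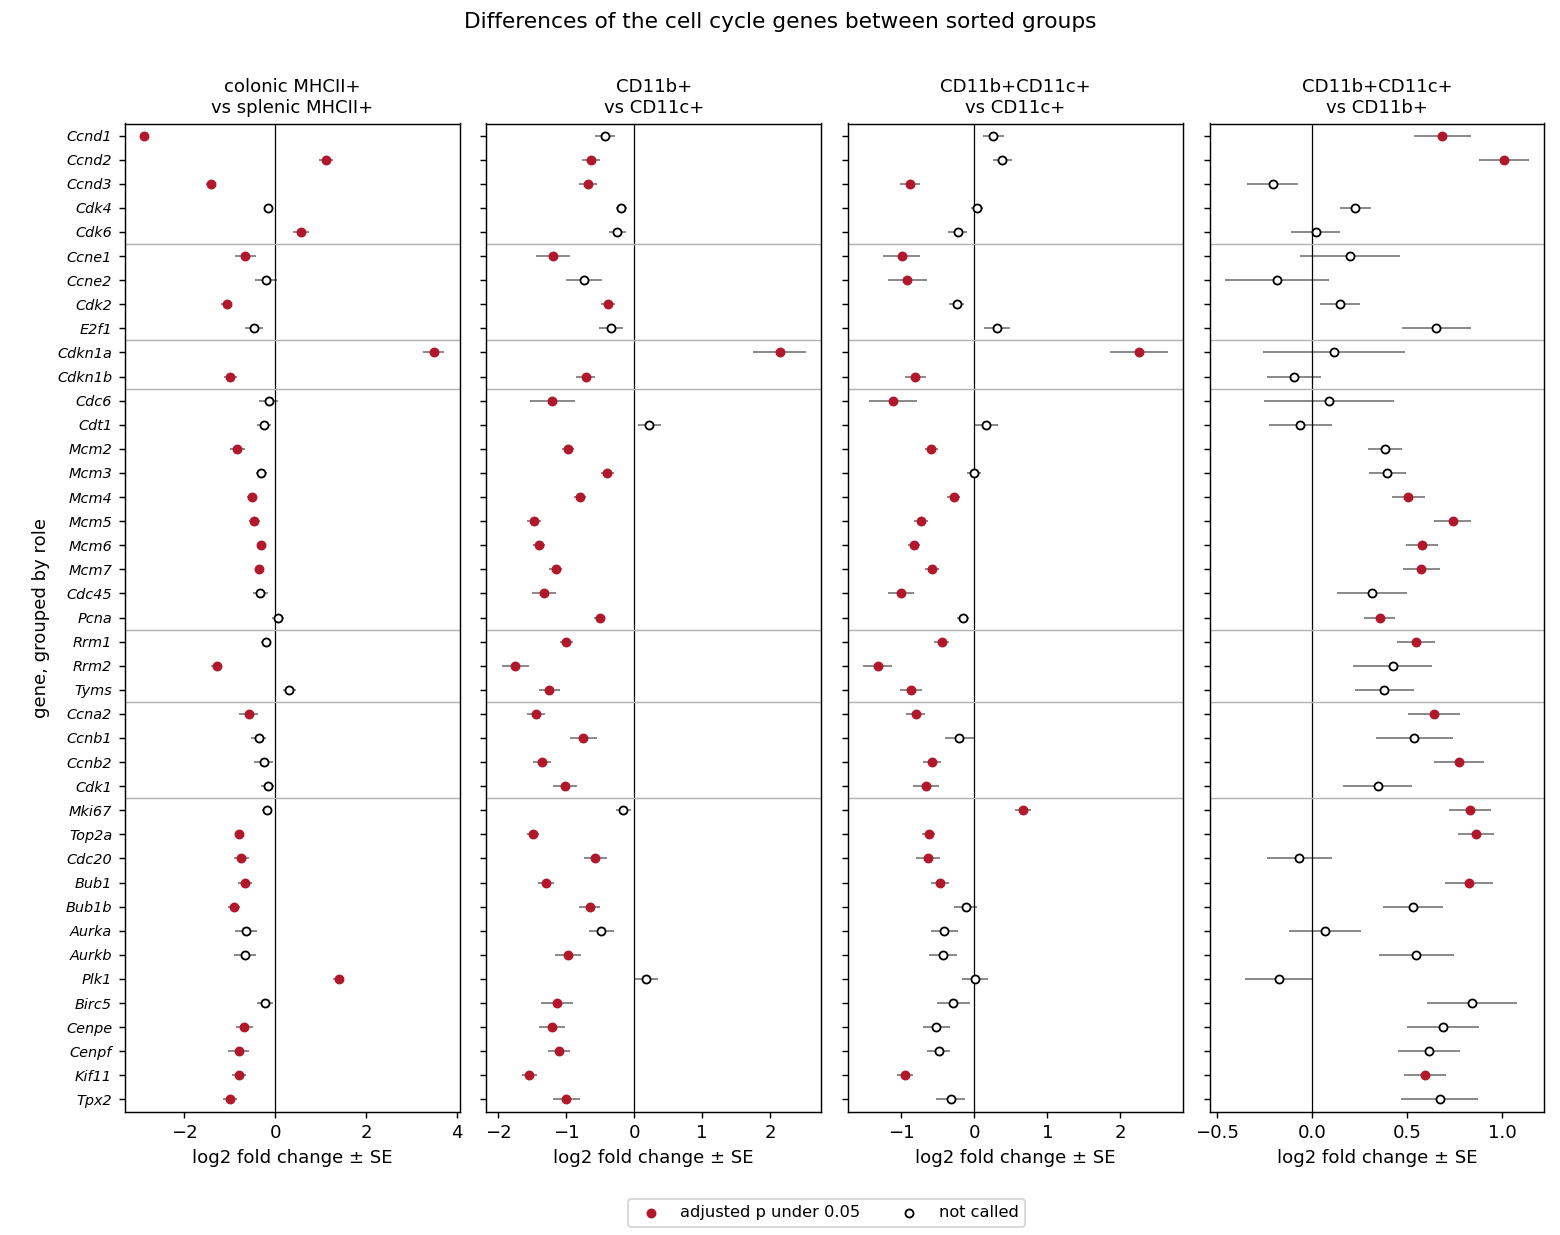
Each panel is a comparison and each row a gene, with the log2 fold change as a point and its standard error as a line. Filled points passed an adjusted p of 0.05 in edgeR and open points did not. The scales of the panels differ. Filled points number 24, 32, 23 and 14 from the left panel to the right.

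Read together over the 3 subsets, 28 of the 41 genes had a CD11b+CD11c+ mean CPM between the CD11b+ and the CD11c+ mean. For 10 genes, CD11b+CD11c+ cells were called both lower than CD11c+ cells and higher than CD11b+ cells. These were Bub1, Ccna2, Ccnb2, Kif11, Mcm4, Mcm5, Mcm6, Mcm7, Rrm1 and Top2a. The comparisons share libraries, so these calls are not independent, and many changed with the setting. Mcm4 was lost against CD11c+ cells under every alternative, Ccna2 against CD11b+ cells with a replicate block (adjusted p = 0.0508), and Ccnb2 against CD11c+ cells in the fit of all 10 libraries (adjusted p = 0.0726). With no library left out, Mcm5 and Top2a were the members of this set called in both comparisons under every setting tried. None of the 10 was, once libraries were left out. Mki67 was outside that order, with its highest level in CD11b+CD11c+ cells. Aurka, Cdk4, Cdt1 and E2f1 were called in none of the 4 comparisons. At an adjusted p under 0.05, 8 genes were called in all 4: Bub1, Ccna2, Kif11, Mcm4, Mcm5, Mcm6, Mcm7 and Top2a. The same limits apply to these 8. Over all genes tested, 22.5% were lower in CD11b+CD11c+ than in CD11c+ cells, and 3.79% were higher than in CD11b+ cells. The joint patterns were not counted over all genes, so whether they are particular to the list was not tested.

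Further genes of the pathway were read from 4 lists, of which the 3 members with the highest mean TPM are named. Their counts are to be read against the shares of all genes called lower (28.7%, 25.0%, 22.5% and 5.84%) and higher (31.6%, 27.0%, 20.4% and 3.79%) in the 4 comparisons as ordered here. Of 40 other replication genes, 2 were higher and 15 lower in colonic than in splenic MHCII+ cells, with a median log2 fold change of -0.38. In CD11b+ against CD11c+ cells the counts were 1 higher and 35 lower (median -0.86), and in CD11b+CD11c+ against CD11c+ cells 1 higher and 27 lower (median -0.60). In CD11b+CD11c+ against CD11b+ cells 8 were higher (median 0.31). Tk1, the S phase thymidine kinase, was higher in the colon than in the spleen, at 38.5 and 34.1 CPM against 25.7 and 23.3 CPM (log2 fold change 0.57, SE 0.13, adjusted p = 0.010). It was also higher in CD11b+CD11c+ than in CD11b+ cells, at 46.9 and 41.6 CPM against 21.0 and 22.3 CPM (log2 fold change 1.03, SE 0.12, adjusted p = 0.0059). Rfc2, a subunit of the clamp loader, was lower in the colon than in the spleen (log2 fold change -0.80, adjusted p = 0.0017), and Slbp, which binds the stem-loop of histone mRNA, passed in no comparison.

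Of 53 other mitosis genes, 1 was higher and 28 were lower in colonic than in splenic MHCII+ cells (median -0.56). In CD11b+ against CD11c+ cells 48 were lower (median -1.10), in CD11b+CD11c+ against CD11c+ cells 1 was higher and 26 were lower (median -0.56), and in CD11b+CD11c+ against CD11b+ cells 15 were higher (median 0.60). Cenpa, the histone H3 variant of centromeres, was the member higher in the colon, at 66.8 and 79.1 CPM against 32.5 and 26.0 CPM in the spleen (log2 fold change 1.31, SE 0.15, adjusted p = 0.00044). Smc4, a condensin subunit, was lower there, at 144 CPM in each colonic library against 291 and 278 CPM in the splenic libraries (log2 fold change -0.98, SE 0.09, adjusted p = 0.00017). Pttg1, which encodes securin, passed in no comparison.

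Of 19 E2F, pocket protein and MuvB regulators, 2 were higher and 11 lower in colonic than in splenic MHCII+ cells (median -0.65), and 8 were lower in CD11b+ than in CD11c+ cells (median -0.36). In CD11b+CD11c+ cells, 4 were lower than in CD11c+ cells and 1 was higher than in CD11b+ cells. The 4 of 19 lower (21.1%) and the 1 of 19 higher (5.26%) were near the shares of all genes. Tfdp1, the dimer partner of E2F, was lower in the colon than in the spleen (log2 fold change -0.32, adjusted p = 0.049), while Mybl2, the B-Myb partner of the MuvB complex, and Rbbp4, a histone-binding subunit of that complex, did not pass there. Of 16 other inhibitors and regulators of cyclin-dependent kinases, 4 were higher (25.0%) and 5 lower (31.2%) in the colon than in the spleen, near the shares of all genes. In CD11b+ against CD11c+ cells 3 were higher and 7 lower, and in CD11b+CD11c+ against CD11c+ cells 2 were higher and 4 lower. These last 4 (25%) were near the share of all genes called lower (22.5%). In CD11b+CD11c+ against CD11b+ cells 1 was higher and 1 lower (6.25% each), near the shares of all genes (3.79% and 5.84%).

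Cks1b and Cks2 are paralogous small subunits of cyclin-dependent kinase complexes, and their values differed in direction. Cks1b was at 5.15 and 5.08 CPM in CD11b+ libraries, against 13.8 and 16.8 CPM in CD11c+ libraries (log2 fold change -1.58, SE 0.19, adjusted p = 0.0016). Cks2 was at 56.6 and 56.3 CPM in CD11b+ libraries, against 19.5 and 15.5 CPM in CD11c+ libraries (log2 fold change 1.69, SE 0.13, adjusted p = 0.00041). Cks2 was lower in CD11b+CD11c+ than in CD11b+ cells, at 27.1 and 27.2 CPM against 56.6 and 56.3 CPM (log2 fold change -1.05, SE 0.13, adjusted p = 0.0061). Cdkn2d, which encodes the p19 inhibitor of Cdk4 and Cdk6, was higher in CD11b+ than in CD11c+ cells, at 17.7 and 16.4 CPM against 11.5 and 11.8 CPM (log2 fold change 0.55, SE 0.12, adjusted p = 0.012).

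**Figure D5:**
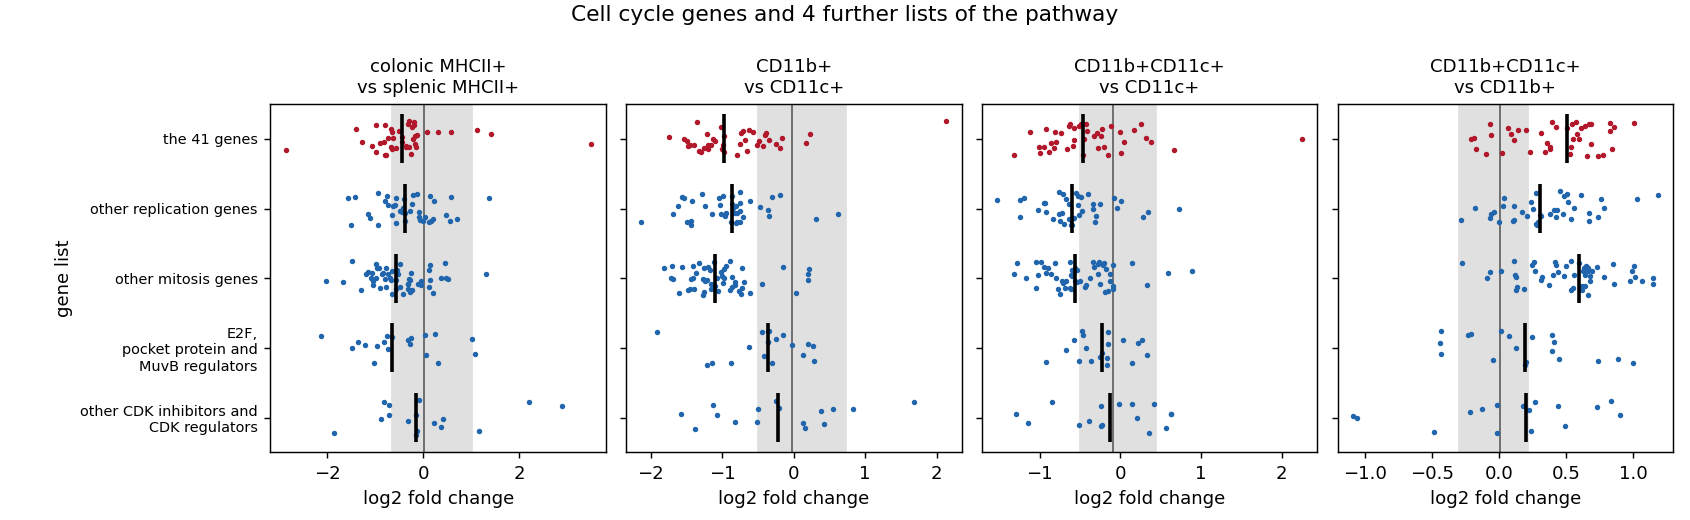
Each point is a gene, placed by its log2 fold change in the comparison named above the panel. Rows are the 41 cell cycle genes and 4 further lists, black bars are list medians, and the grey band with its line gives the quartiles and median of all genes tested. The scales of the panels differ. In CD11b+ against CD11c+ cells the replication and mitosis medians of -0.86 and -1.10 lie left of the band.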

How the data were processed

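RNA of 10 libraries in 5 groups was quantified by the authors with kallisto 0.44.0, per the submitters' processing notes, which also name sleuth and the build mm10. The deposited tables hold estimated counts and TPM per transcript, per the file headers. Of their transcript lengths 88.9% are multiples of 3, so they are mostly coding sequences. Of 66760 transcripts, 65747 (98.5%) matched GENCODE M21 by identifier. Summing these estimated counts over each gene's transcripts and rounding gave the values tested. Counts without a gene (0.532 to 0.912% of a library) were left out.

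The MHCII+ set and the subset set were fitted separately with edgeR 4.0.16 (R 4.3.3): filterByExpr, TMM, group as the only term, the quasi-likelihood F test and Benjamini-Hochberg adjustment over all genes tested, with a call at adjusted p under 0.05. Standard errors are the log2 fold change over the root of F. On simulated counts with known changes, 2-fold changes were recovered in 63%, 50%, 57% and 52% of cases in the order in which the comparisons are reported. That simulation changed 100 genes 2-fold and 100 genes 4-fold, and gave all genes the same spread. In the data a larger share of genes was called and the spread varies by gene. The simulated shares are therefore not the recovery in the data.

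The members and lists were chosen with earlier results of these data known. All 41 genes are accounted for, and of each further list the 3 members with the highest mean TPM are named. Splenic libraries, whose titles carry the same replicate number, were numbered in listing order. Replicates correlated at r = 0.982 to 0.993 on log2 CPM across genes. D-type cyclin shares per kilobase use the longest coding length and were added after seeing the data. The log2 ratios of Mki67 to Top2a, Plk1 to Top2a and Cdkn1a to Cdkn1b were not planned either. They restate the values of their genes and are no further support. Alternatives were DESeq2 1.42.0, limma 3.58.1 on log2(TPM + 1), RLE scaling, no count filter, all 10 libraries in 1 fit, a replicate block and each library left out.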

Additional observations from a re-analysis of the deposited data

How the results depend on the processing

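Of 1599 recomputed log2 fold changes of single genes, 1394 were classed as the same, 151 as weaker and 54 as stronger. A gene called in neither fit was classed as the same even where its sign changed, so the classes do not count changes of direction. Such changes occurred. In CD11b+CD11c+ against CD11c+ cells, 9 genes of the list had a log2 fold change above 0 in the main fit. The number was 6 without CD11c+ library 1 and 11 without CD11c+ library 2. In colonic against splenic MHCII+ cells, leaving out 1 library gave 3 higher, 11 to 22 lower and a median log2 fold change of -0.516 to -0.340, with 11 without splenic library 1. In CD11b+ against CD11c+ cells the ranges were 1 higher, 22 to 32 lower and a median of -0.976 to -0.859, and limma on TPM gave a median of -0.754. In CD11b+CD11c+ against CD11c+ cells they were 2 to 3 higher, 12 to 16 lower and a median of -0.508 to -0.388, and limma gave 11 lower. In CD11b+CD11c+ against CD11b+ cells they were 0 to 8 higher, 0 lower and a median of 0.488 to 0.552. There 22 were higher with no count filter, and limma gave 5 higher and a median of 0.346. The shares of all genes called under the alternatives are not given here. The cause of these shifts was not tested, except that fits without a library rest on fewer samples. Ccnd3 in the colon had a log2 fold change of -2.02 in limma, and Cenpf -0.18. With a replicate block, 1 higher and 33 lower, 3 higher and 20 lower, and 14 higher and 0 lower were called in the 3 subset comparisons. Same-numbered libraries of the subsets correlated in their deviations at r = -0.0534 (CD11b+ with CD11c+), 0.333 (CD11b+CD11c+ with CD11c+) and 0.00455 (CD11b+CD11c+ with CD11b+). The labels do not say that a number marks a shared mouse or day, so the numbers were not taken to pair the libraries. Whether same-numbered CD11b+CD11c+ and CD11c+ libraries share a mouse or day was not tested. The block ended the calls of Mcm4 against CD11c+ cells (adjusted p = 0.0542) and Ccna2 against CD11b+ cells (0.0508). No paired analysis was possible for the MHCII+ set because the splenic titles carry the same number. Depth limits the lowest genes most: Ccne1 had 27 counts in its lowest library.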
